A study of Mus musculus with 6 samples.

Results

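The Gypsy-related elements are the 25 rows of the deposited repeat counts whose family is given as Gypsy (19 rows) or as Gypsy? (6 rows), out of 1336 rows in all. They were taken by that family name, with earlier results of these data known. RNA was measured in mouse embryonic fibroblasts, connective-tissue cells grown in culture from embryos, of the BALB/c strain. The embryos were 10.5 days old. The 2 genotypes were sequenced as total RNA after depletion of ribosomal RNA: 3 libraries of wild-type cells (WT) and 3 of β-actin knockout cells (KO, Actb-/-), the latter lacking the cytoskeletal and nuclear actin encoded by Actb. No other allele or treatment is named, and the labels do not say whether a library came from 1 embryo or from pooled embryos. The rows hold no protein-coding gene, so neither fibroblast markers nor Actb RNA were analysed here.

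Gypsy elements, also called Ty3 elements, are retrotransposons with a long terminal repeat (LTR) at each end. The LTRs hold the promoter and the polyadenylation signal, and the internal region between them codes for the capsid and polymerase proteins. In mammals they are old and immobile fragments, and a few of their capsid genes were kept by the host, such as Peg10 and Rtl1. A question mark in a family name means that the assignment is uncertain. A row sums reads over all genomic copies of an element. Reads from a copy inside a longer transcript therefore cannot be told apart from RNA that starts in the element, and in cultured cells fewer expressing cells cannot be told apart from less RNA per cell.

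The family was rare in these libraries. All 25 rows together held 1401, 387 and 768 counts in the WT libraries (replicates 1, 2 and 3, in this order throughout) and 491, 1346 and 1018 in the KO libraries. Summed over all 1336 rows, the libraries held 7708630 to 19288620 counts, of which ribosomal RNA (rRNA) took between 32.4% and 84.8%. Reads outside these rows are not in the totals, so rRNA content here and below is a share of repeat-row counts. The family thus had its fewest counts in the libraries richest in rRNA, WT replicate 2 (84.1% rRNA) and KO replicate 1 (84.8%). It had its most in the libraries poorest in rRNA, WT replicate 1 (32.4%) and KO replicate 2 (52.9%). Levels below are normalized CPM, that is, CPM after scaling each library by TMM (trimmed mean of M-values), which is set by the bulk of the rows and not by the most abundant ones. On this scale a single count was worth 0.0415 in WT replicate 1 and 0.130 in WT replicate 2. Element lengths were not used, so a row's level tells how many reads it received and not how many molecules per length.

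A few rows carried much of the family total. MamGyp-int, the internal region of the MamGyp elements, held 20.0% of all Gypsy counts and ranked first in each of the 6 libraries. MamGypLTR3a, an LTR of the same group, held 8.78% and ranked second in 5 libraries; in WT replicate 3 the second was MamGypsy2-I. MamGypsy2-I, an internal region, held 7.39%, MamGypLTR1c 6.30%, LTR104_Mam 6.27% and LTR85a 6.08%. Between 5 and 6 rows were enough to reach 50% of the counts in any library. At the other end, MamGypsy2-LTR had between 0 and 8 counts per library and X1_LR between 0 and 3, and these 2 rows were too low to be tested. MamGypsy2-LTR was at 0 in WT replicate 2, where 3 counts, the limit that a count of 0 allows, equal 0.390 normalized CPM. X1_LR was at 0 in WT replicates 1 and 3 and KO replicate 3, with limits of 0.124, 0.209 and 0.202.

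Grouped by name, the 10 MamGyp LTR rows held 33.7% of the family's counts. The 2 internal regions held 27.4%, the 5 LTR81 rows 13.1%, the 3 LTR85 rows 10.7%, the 3 LTR88 rows 8.72% and LTR104_Mam the 6.27% given above. The internal regions made up 26.4%, 32.6% and 30.3% of Gypsy counts in WT, and 32.4%, 25.3% and 24.7% in KO. The genotypes overlapped, and the 2 highest shares were those of the libraries richest in rRNA. The exact (Clopper-Pearson) 95% interval was widest in WT replicate 2, from 27.9% to 37.5%, and covers counting error only. The mean share was 29.8% ± 3.11 (SD, n = 3) in WT and 27.5% ± 4.28 in KO cells (exact two-sided permutation p = 0.5, with 0.1 the smallest p that 3 against 3 samples allow). MamGyp-int alone took 22.1% ± 3.88 of Gypsy counts in WT and 20.5% ± 4.10 in KO cells (p = 0.5 by the same exact test, n = 3). This difference changed sign without WT replicate 2, where it was 0.352 percentage points higher in KO.

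**Figure D1:**
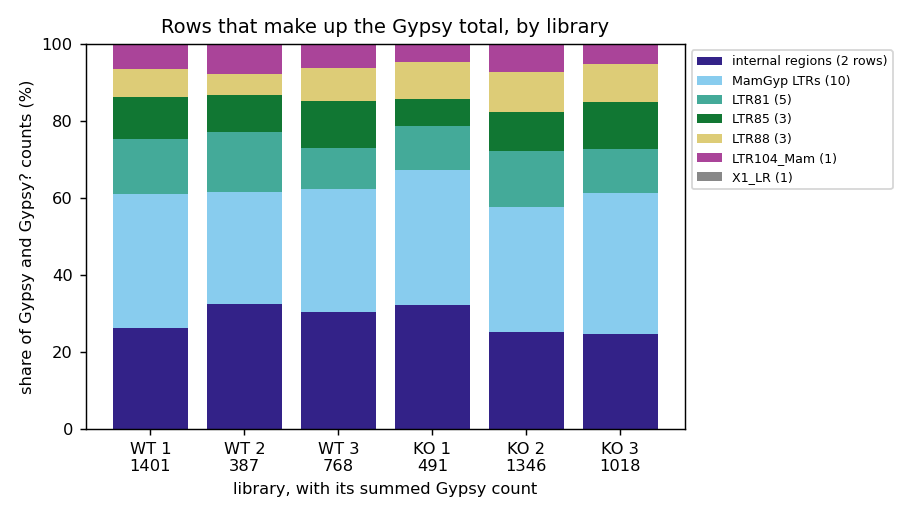
Stacked bars give the share (%) of each name group in the summed counts of the 25 Gypsy and Gypsy? rows, with 1 bar per library and its summed count under it. Internal regions and MamGyp LTRs fill most of every bar, and the LTR88 band is wider in each KO library than in any WT library.

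The makeup of the family varied between libraries of 1 genotype by more than counting noise. Over the 23 rows that were high enough to be tested, a chi-square statistic on row by library counts, divided by its degrees of freedom, was 1.82 among the 3 WT libraries and 1.71 among the 3 KO libraries. A value of 1 would mean counting noise alone. Pooled WT against pooled KO gave 1.58, which was not above the values within a genotype. Pooling weights libraries by their counts, most of all WT replicate 1 (1401) and KO replicate 2 (1346). The pooled value is therefore not the same measure as the other values, and the sizes of the variation cannot be compared directly.

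KO cells had more Gypsy RNA as a family, by a modest amount on the TMM scale. The summed level was 58.1, 50.3 and 53.5 normalized CPM in WT, and 60.2, 66.8 and 68.7 in KO. Each KO library lay above each WT library, with a gap of about the size of the counting error between WT replicate 1 and KO replicate 1 (2.67% and 4.51% of their counts). The mean rose from 54.0 ± 3.93 (SD, n = 3) to 65.2 ± 4.48 in KO (log2 fold change 0.27, standard error 0.08, 95% interval 0.11 to 0.44; adjusted p = 0.0283 over 57 family totals, edgeR quasi-likelihood test). That is 1.21 times the WT level, with an interval of 1.08 to 1.35. Of the 57 family totals 6 passed the test, 10.5%, and 1.75% passed as higher in KO, which was the Gypsy total alone; the other 5 were lower. In 7.02% of family totals, Gypsy included, all KO libraries lay above all WT libraries.

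The adjusted p of the family total lay close to the threshold. The edgeR call was lost on leaving out WT replicate 2 (log2 fold change 0.22, adjusted p = 0.0752), WT replicate 3 (0.27, 0.119), and likewise KO replicate 2 (0.25, 0.0525) or KO replicate 3 (0.23, 0.138). It passed without WT replicate 1 (0.33) and without KO replicate 1 (0.32). With all 6 libraries it was lost by DESeq2 (0.27, DESeq2 adjusted p = 0.1001) and with the replicate number as a block (0.27, edgeR adjusted p = 0.183). Without MamGyp-int it was 0.30 (edgeR adjusted p = 0.0780), and without LTR88b 0.24 (edgeR adjusted p = 0.0524). Scaled by total counts, rRNA included, it was -0.13 with a standard error of 1.22, on a scale where the median of all rows moved by -0.37; against that median the family stood at 0.23.

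In each genotype the library with the most rRNA had the lowest Gypsy level, replicate 2 in WT and replicate 1 in KO. At close rRNA content, KO replicate 1 (84.8% rRNA) stood at 60.2 and WT replicate 2 (84.1%) at 50.3 normalized CPM. KO replicate 3 (77.0%) stood at 68.7 and WT replicate 3 (73.7%) at 53.5. Each of these sets 1 library against 1. WT replicate 1 (32.4%, at 58.1) and KO replicate 2 (52.9%, at 66.8) had no library of close rRNA content in the other genotype. With the log2 ratio of rRNA to other counts as a covariate, the family log2 fold change was 0.30 (edgeR adjusted p = 0.000343), and without WT replicate 1 and KO replicate 2 it was 0.32 (edgeR adjusted p = 0.0337). The covariate fit called more throughout: 12 of 57 family totals and 92 rows passed, against 6 and 69 in the main fit. Whether rRNA content is a cause of the difference was not tested.

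As a share of all counts of the LTR class, the genotypes could not be separated. Gypsy rows took 0.120%, 0.0368% and 0.0646% of LTR counts in WT, and 0.0434%, 0.124% and 0.0814% in KO. The mean was 0.0738% ± 0.0423 in WT and 0.0831% ± 0.0406 in KO cells (exact two-sided permutation p = 0.7, n = 3). The share was highest in the 2 libraries with the least rRNA and lowest in the 2 with the most, in both genotypes. Raw counts of the LTR class as a whole changed little between libraries, from 1051482 to 1250391. Raw Gypsy counts differed by more than their counting error. On the TMM scale this was otherwise. ERVK, the LTR family with the most counts, had 46168 ± 32822 normalized CPM (SD, n = 3) in WT and 50131 ± 32022 in KO. The Gypsy total varied less relative to its mean, at 54.0 ± 3.93 and 65.2 ± 4.48. Much of the denominator thus varied widely within each genotype, so the share cannot tell whether Gypsy RNA differed between genotypes. The difference in share fell below 0 without WT replicate 2 (-0.00922 percentage points) and without KO replicate 2 (-0.0114).

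**Figure D2:**
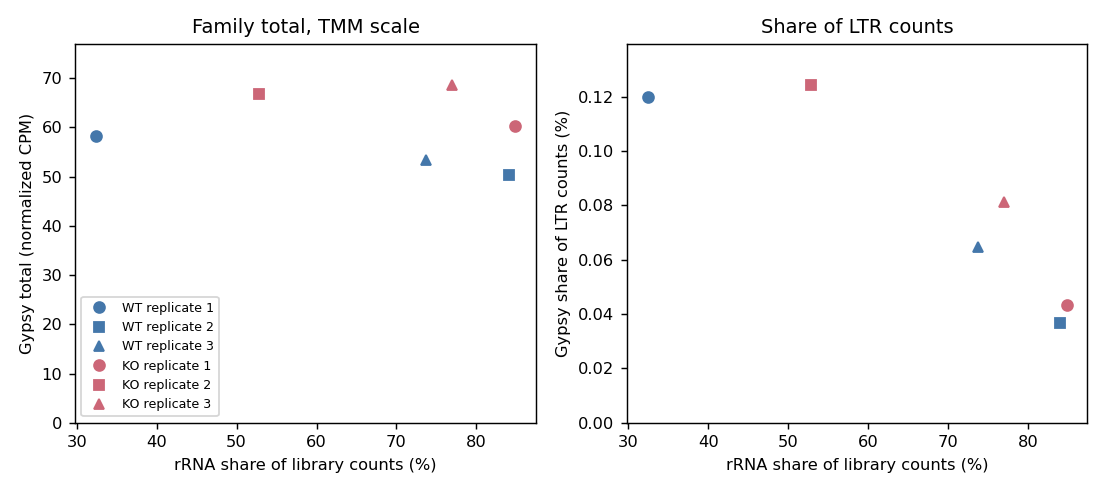
Each point is a library, with its rRNA share of counts (%) on the x axis and, on the y axis, the Gypsy total in normalized CPM (left) or the Gypsy share of LTR counts in % (right). On the left the KO libraries lie between 60.2 and 68.7 and the WT libraries between 50.3 and 58.1, while on the right both genotypes run from about 0.12% at low rRNA to about 0.04% at high rRNA.

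Set against other ancient repeats, Gypsy rows gave overlapping values. For every 100 counts of L2, CR1, RTE-X, RTE-BovB and MIR, families of LINE and SINE elements that are likewise old, there were 0.771, 0.645 and 0.697 Gypsy counts in WT. In KO there were 0.757, 0.873 and 0.945. The mean ratio was 0.704 ± 0.0637 in WT and 0.858 ± 0.0948 in KO cells (exact two-sided permutation p = 0.2, n = 3), and WT replicate 1 lay above KO replicate 1. The totals of L2 and MIR had log2 fold changes of 0.01 and -0.02, with 95% intervals of -0.13 to 0.16 and -0.19 to 0.14. RTE-X stood at 0.20 (edgeR adjusted p = 0.105), with all KO libraries above all WT libraries, as for the Gypsy total. CR1 stood at -0.07 (edgeR adjusted p = 0.493) and RTE-BovB at -0.16 (edgeR adjusted p = 0.229), both with overlap.

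Taken singly, LTR88b was the row that passed the test. Of the 23 tested Gypsy rows 1 rose and none fell by edgeR's quasi-likelihood test with Benjamini-Hochberg adjustment over all 1193 tested rows, where 5.78% passed, 2.18% as higher and 3.6% as lower in KO. At an unadjusted p under 0.05 in the same edgeR fit there were 2 Gypsy rows, both higher in KO, beside 20.9% of all tested rows. The fold change lay above 0 in 21 of the 23 rows, and in 624 of all 1193 rows. The median log2 fold change was 0.21, and 0.01 over all tested rows, while the median standard error of a Gypsy row was 0.29 and that of all rows 0.12. On the total-count scale the fold change lay above 0 in 5 of the 23 rows and their median was -0.17, with the median of all rows at -0.36. Normalized CPM did not overlap between genotypes in 5 rows, all higher in KO; over all tested rows 25.8% were without overlap, 12.4% in that direction and 13.4% in the other.

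**Figure D3:**
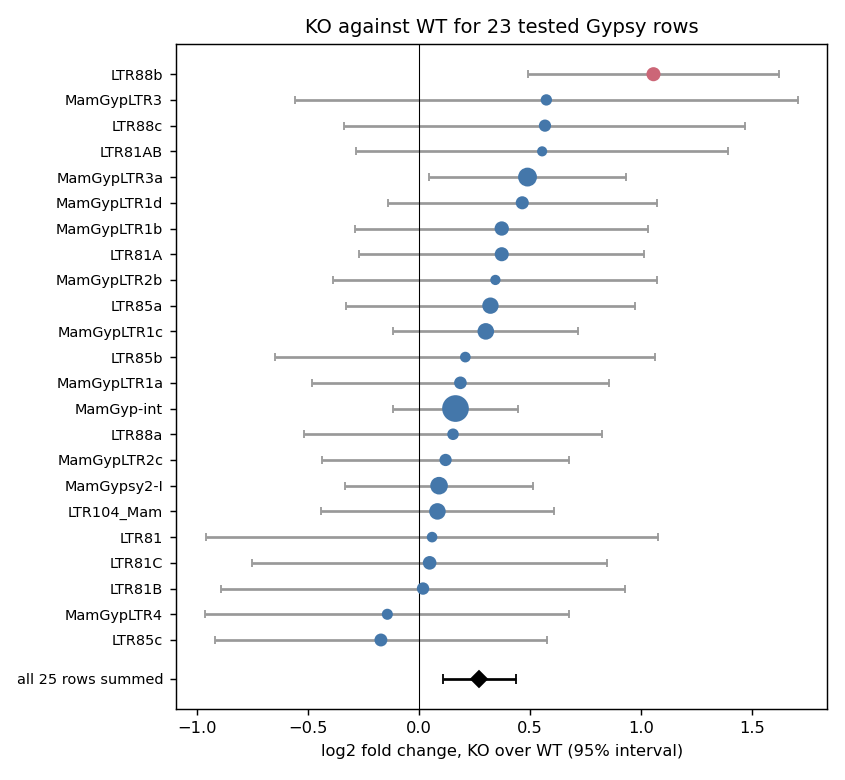
Points give the log2 fold change of KO over WT for the 23 tested rows, with 95% intervals as bars and point area growing with the mean count; the diamond is the sum of all 25 rows. The interval lies above 0 for LTR88b (red, passed the adjusted test), for MamGypLTR3a, which did not pass, and for the sum, and it spans 0 for the others.

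LTR88b is an LTR of the uncertain Gypsy? family. It had 33, 13 and 26 counts in WT and 20, 72 and 53 in KO. As normalized CPM these were 1.37, 1.69 and 1.81 in WT and 2.45, 3.58 and 3.57 in KO. KO replicates 2 and 3 were nearly alike, and KO replicate 1 lay closer to WT but above all of it. The mean rose from 1.62 ± 0.228 (SD, n = 3) to 3.20 ± 0.650 in KO (log2 fold change 1.06, standard error 0.25, edgeR adjusted p = 0.0462), or 2.08 times the WT level with a 95% interval of 1.41 to 3.07. The call was close to the threshold: it was lost without any single library except KO replicate 1, at 0.90 to 1.17, and kept without that library, at 1.17. The edgeR call was also lost without structural RNA rows (1.05, adjusted p = 0.0552), without a count filter (1.05, 0.0529), with the replicate block (0.96, 0.135), without WT replicate 1 and KO replicate 2 together (0.82, 0.314) and with total-count scaling (0.84, 0.998). It was kept with DESeq2 size factors, the DESeq2 test, limma-voom and the rRNA covariate (adjusted p from 0.0340 to 0.0441).

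The related LTR88c and LTR88a did not pass. LTR88c stood at 1.49, 0.260 and 1.53 normalized CPM in WT and at 1.84, 1.74 and 2.02 in KO. The groups did not overlap, but the low WT value rests on 2 counts in WT replicate 2, and the log2 fold change was 0.57 (95% interval -0.34 to 1.47, edgeR adjusted p = 0.460). LTR88a had a log2 fold change of 0.15 and overlapping groups. Summed, the 3 LTR88 rows stood at 3.84 ± 0.971 in WT and 6.41 ± 0.571 in KO, and their share of Gypsy counts was 7.08% ± 1.54 in WT and 9.83% ± 0.315 in KO. Both differences reached the smallest possible exact two-sided permutation p of 0.1 (n = 3), which over 7 name groups adjusts to 0.233 for the level and 0.7 for the share.

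Among the MamGyp LTRs, MamGypLTR3a, MamGypLTR1c and MamGypLTR1d were without overlap and higher in KO, and none passed the test. Of all tested rows 12.4% were without overlap in that direction. MamGypLTR3a stood at 5.06, 4.16 and 3.69 normalized CPM in WT and at 5.15, 5.96 and 7.15 in KO. The highest WT and the lowest KO value almost touch. Its log2 fold change was 0.49, standard error 0.19 (edgeR adjusted p = 0.191), with an unadjusted p of 0.0340 in the same edgeR fit.

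MamGypLTR1c stood at 3.65, 2.86 and 3.41 normalized CPM in WT and at 3.68, 4.37 and 4.32 in KO, again with WT replicate 1 and KO replicate 1 nearly equal (log2 fold change 0.30, edgeR adjusted p = 0.405). MamGypLTR1d stood at 1.91, 1.04 and 1.60 in WT and at 1.96, 2.14 and 2.56 in KO (log2 fold change 0.46, edgeR adjusted p = 0.376). Here too WT replicate 1 and KO replicate 1 were close. In both rows WT replicate 2, the shallowest library for this family, was the lowest. Summed, the 10 MamGyp LTR rows stood at 17.3 ± 2.78 in WT and 22.6 ± 2.17 in KO, with no overlap (exact two-sided permutation p = 0.1, adjusted 0.233, n = 3). Of the other MamGyp LTRs, MamGypLTR3, MamGypLTR1b, MamGypLTR2b, MamGypLTR1a and MamGypLTR2c had log2 fold changes of 0.12 to 0.57, and MamGypLTR4 of -0.14, each with an interval that spans 0.

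The internal regions had small fold changes. MamGyp-int stood at 10.7, 13.1 and 11.8 normalized CPM in WT and at 15.2, 12.1 and 12.5 in KO. KO replicate 1 was the highest and WT replicate 1 the lowest, and WT replicate 2 lay above KO replicates 2 and 3. The means were 11.9 ± 1.24 and 13.3 ± 1.68 (SD, n = 3; log2 fold change 0.16, 95% interval -0.12 to 0.45, edgeR adjusted p = 0.493). The interval for the ratio of KO to WT ran from 0.922 to 1.36.

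MamGypsy2-I stood at 4.69, 3.25 and 4.45 normalized CPM in WT and at 4.29, 4.87 and 4.38 in KO. The groups overlapped, with WT replicate 2 apart below the rest (log2 fold change 0.09, 95% interval -0.33 to 0.51, edgeR adjusted p = 0.840). Summed, the internal regions stood at 16.0 ± 0.554 in WT and 17.8 ± 1.47 in KO, a ratio of 1.11 without overlap (exact two-sided permutation p = 0.1, adjusted 0.233, n = 3). The gap was narrow: WT replicate 2, with 126 counts, stood at 16.4, and KO replicates 2 and 3 both stood at 16.9.

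In LTR104_Mam, LTR85a and LTR85c, as in MamGyp-int, the SD within KO exceeded the difference between the genotype means. LTR104_Mam stood at 3.78, 3.77 and 3.34 normalized CPM in WT and at 2.70, 4.77 and 3.57 in KO, so that KO held both the highest and the lowest library (log2 fold change 0.08, edgeR adjusted p = 0.887). LTR85a stood at 3.57, 2.34 and 3.27 in WT and at 2.21, 4.57 and 4.59 in KO (log2 fold change 0.32, edgeR adjusted p = 0.571). In each genotype the library richest in rRNA was its lowest.

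LTR85c had the lowest fold change of the tested rows. It stood at 1.70, 1.95 and 2.44 normalized CPM in WT and at 1.47, 1.29 and 2.56 in KO (log2 fold change -0.17, 95% interval -0.92 to 0.58, edgeR adjusted p = 0.825). LTR85b stood at a log2 fold change of 0.21. The LTR81 rows ran from 0.02 in LTR81B to 0.55 in LTR81AB, with LTR81, LTR81C and LTR81A at 0.06, 0.05 and 0.37. Their summed level was 7.31 ± 1.40 in WT and 8.15 ± 1.40 in KO cells (exact two-sided permutation p = 0.5, n = 3).

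**Figure D4:**
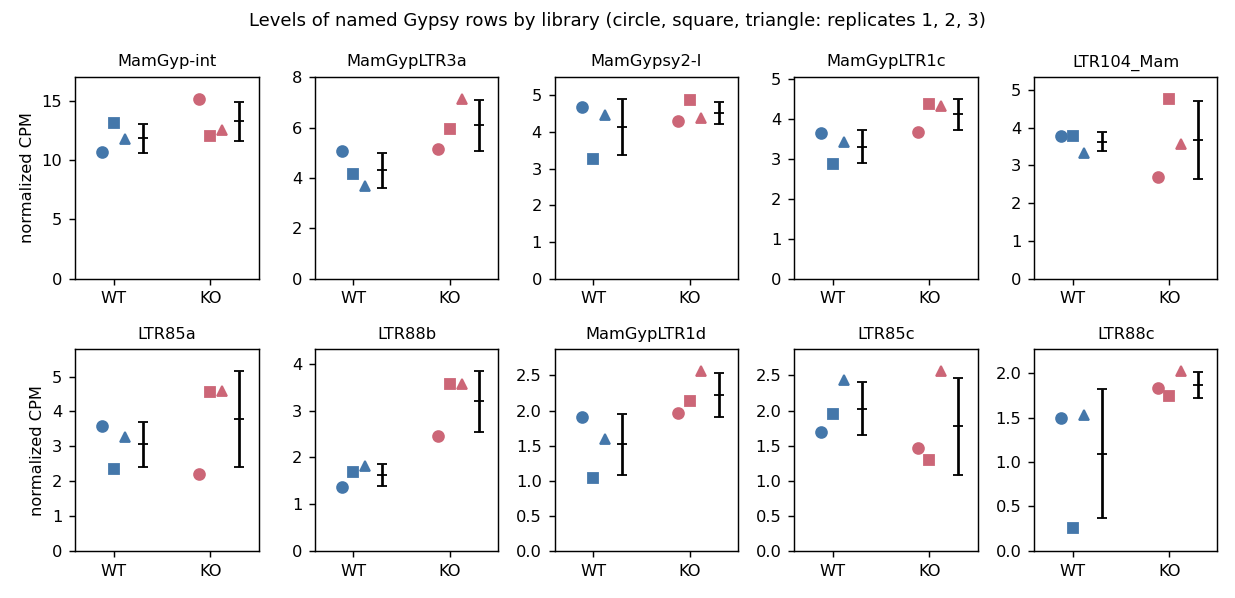
Normalized CPM (y axis, from 0) in each WT (blue) and KO (red) library for the 10 named rows, with the mean and SD (n = 3) of each genotype as a black bar beside its points. LTR88b shows the widest gap, from 1.81 in the highest WT to 2.45 in the lowest KO library. In LTR104_Mam, LTR85a and LTR85c the KO points lie on both sides of the WT points.

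The 17 tested rows of family Gypsy and the 6 of family Gypsy? had similar medians. Of the former, 16 had fold changes above 0 with a median of 0.19, and of the latter 5, with a median of 0.27. Summed by family name, the log2 fold change was 0.24 for Gypsy (edgeR adjusted p = 0.0496) and 0.40 for Gypsy? (edgeR adjusted p = 0.124); the difference between these was not tested. Among 608 tested LTR-class rows outside these families, 16 rose and 16 fell, with a median of 0.02. The large families had medians of 0.02 (ERV1), 0.01 (ERVK), 0.03 (ERVL) and 8.5e-05 (ERVL-MaLR). Families with few tested rows stood at 0.34 (ERV1?, 3 rows), 0.14 (ERVL?, 5) and 0.04 (ERVK?, 2). The 9 LTR rows without a family name had a median of 0.15. Among 34 tested rows of L2, CR1, RTE-X, RTE-BovB and MIR, none rose and 1 fell in the same edgeR fit (3 at an unadjusted p under 0.05), with a median of 0.01. All 4 RTE-X rows lay above 0, with a median of 0.19. Medians were 0.07 for L2, 0.01 for CR1 and -0.02 for MIR, and the 1 RTE-BovB row stood at -0.15.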

How the data were processed

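Total RNA libraries were made with a TruSeq Ribo-Zero kit, per the labels. FastQC 0.11.5, Trimmomatic and Bowtie2 and the builds mm10 and GRCm38 are named, per the submitters' processing notes. Not given in the sources used here were the repeat counter, its annotation, the sharing of reads among similar rows and the use of strand. As deposited by the authors, the files hold estimated counts per repeat row, called fractional in the file names, without normalization and all whole numbers. Rows that share reads can move together, which was not tested. filterByExpr kept 1193 of 1336 rows, 23 of them Gypsy. TMM factors ran from 0.423 to 3.13. KO was compared with WT in R 4.3.3 by edgeR 4.0.16 (quasi-likelihood test, Benjamini-Hochberg, threshold 0.05). Family totals with a mean of at least 10 counts used the same library sizes. Alternatives used DESeq2 1.42.0 and limma 3.58.1. Shares were compared by exact permutation. The edgeR procedure was tested on simulated counts. Over all tested rows, rRNA included, replicates of a genotype differed by more than sampling noise (pairwise chi-square over degrees of freedom 489 or more). Over the 23 tested Gypsy rows this ratio was 1.82 among the 3 WT and 1.71 among the 3 KO libraries.

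Values per library are given for rows with at least 5% of the family total, rows that passed, rows whose genotypes do not overlap, and the rows with the largest and smallest fold change. The members and lists were chosen with earlier results of these data known. Groups and replicate numbers came from the titles. Same-numbered WT and KO libraries did not deviate together (correlations of -0.63, -0.59 and 0.06), so the numbers were not used as pairs.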

Additional observations from a re-analysis of the deposited data

How the results depend on the processing

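The rise of the family total kept its direction in 18 of 19 alternatives and passed in 8. It did not pass with DESeq2 (0.27), with a replicate block (0.27, edgeR adjusted p = 0.183), as family Gypsy? alone (0.40), without MamGyp-int (0.30), or, chosen after seeing the data, without LTR88b (0.24) or LTR88b and MamGypLTR3a (0.22). Scaled by total counts it was -0.13. Leaving out single libraries gave 0.22 to 0.33, a direction nearly fixed by groups that do not overlap; the adjusted p ran from 0.000343 to 0.963 over all alternatives. The count of called Gypsy rows, 1 as reported, was 0 in 11 of 16 alternatives: with total counts, without structural RNA, with the replicate block, without a filter, with a mean of at least 50 counts (6 rows tested, LTR88b not among them), without WT 1 and KO 2, and without single libraries (0 to 1). In those 11, which all used edgeR, 0 to 5 Gypsy rows had an unadjusted p under 0.05. With the block the calls over all rows went from 69 to 24. The highest correlation of deviations, 0.69, was between WT replicate 1 and KO replicate 2. Without single libraries the share of LTR counts differed by -0.0114 to 0.0324 percentage points, the internal share by -4.77 to -0.910 and the MamGyp-int share by -3.99 to 0.352. On the total-count scale MamGyp-int (-0.19), MamGypsy2-I (-0.31), MamGypLTR1c (-0.0875), LTR104_Mam (-0.17), LTR85a (-0.0261) and MamGypLTR1d (-0.0243) turned below 0, as did the summed internal regions (-0.23), LTR104 (-0.17), LTR81 (-0.17), LTR85 (-0.21) and MamGyp LTRs (-0.13), a scaling added for these sums after seeing the data. LTR88b stayed above 0 there (0.84). LTR104_Mam was -0.12 without WT 1 and KO 2 together. Leaving out single libraries also turned LTR104_Mam (-0.17 to 0.21; below 0 without KO replicate 2), MamGypsy2-I (-0.0119 to 0.20; below 0 without WT replicate 2) and LTR85c (-0.57 to 0.0835; above 0 without WT replicate 3, at 0.0044, or KO replicate 2). Except where shown by fewer rows or libraries, the cause was not tested. With 387 Gypsy counts in WT replicate 2 and 19 of 25 rows under a mean of 50 counts, depth limits single rows.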
